A study of Mus musculus with 27 samples.

Results

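The collagen genes of KUSA4b10 mouse marrow stromal cells were followed under parathyroid hormone (PTH) and parathyroid hormone-related protein (PTHrP). Every gene named by a probe set with a single symbol of the form Col, number, a, number was taken. This gave 42 of the 18193 genes that have a probe set with a single symbol. They fall into 11 fibrillar, 8 basement membrane, 9 FACIT and 14 other collagen genes. The FACIT collagens are fibril-associated collagens with interrupted triple helices. The other genes encode beaded filament, anchoring fibril, short-chain network and membrane-spanning collagens. Each gene is represented by its probe set, a group of short array probes for one transcript, with the highest mean over all arrays. The symbols chose the members and no measured response was used.

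Total RNA of the cells was hybridised to 27 single-colour Affymetrix arrays, 3 for each of 9 groups. KUSA4b10 is a line of marrow stromal cells that can take on features of osteoblasts in culture, and the title of the study calls the cells differentiating osteoblasts. Untreated cells were compared with cells given PTH(1-34) at 10 nM or PTHrP(1-141) at 20 nM, each after 1, 6 and 24 h. The labels name no vehicle for the untreated cells. Dose and peptide length differ between the ligands, so these cannot be told apart from the ligand itself. All results come from 1 cell line, and the labels do not say that the 3 replicates of a group were separate cultures, and the p-values cover no more than the spread among these samples, which could be technical.

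Collagens are trimeric proteins of the extracellular matrix whose chains wind into a triple helix after hydroxylation in the endoplasmic reticulum. Type I collagen, built from the products of Col1a1 and Col1a2, is the main protein of bone matrix and a product of osteoblasts. Type IV collagens form the sheet of basement membranes, and type X collagen, from Col10a1, is known from hypertrophic cartilage. PTH and PTHrP both bind the receptor encoded by Pth1r, which signals through cyclic AMP, and osteoblast lineage cells are among their main targets.

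The deposited intensities were put on a log2 scale, where a difference of 1 is a doubling. The median intensity of an array was 83.15 to 91.08 before that step. The correlation of arrays within a group, taken across genes, was at least 0.9933 in 8 of the 9 groups. Replicate 3 of PTHrP at 1 h stood apart and brought the lowest value of its group to 0.9852. Of the 42 genes, 39 reached a log2 intensity of 5 on at least 3 arrays and were tested. The genes not tested were Col17a1, which lay between 3.57 and 4.26 on all arrays, Col26a1, between 3.75 and 4.57, and Col6a5, between 3.45 and 3.84. Differences are given with the standard error (SE) of the limma fit over all 27 arrays, and a gene is said to rise or fall only where its Benjamini-Hochberg adjusted p over the 15711 genes tested was under 0.05. Levels of different genes rest on different probes and are not compared. In bulk RNA, fewer cells of a type and less RNA per cell cannot be told apart.

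Promoter sequences were taken from RefSeq windows of build GRCm38.p6, each with 250 bases before and 50 after the annotated start of transcription, to show the DNA next to the genes that moved most. Windows were found for 33 of the 42 members, and the search covered 32851 windows in all. The sequences here run from 150 bases before the start to 10 bases after it, for the 5 genes with the largest falls with PTH at 24 h. Capitals mark the cAMP response element TGACGTCA and the TATA box TATAAA on either strand.
Col8a2: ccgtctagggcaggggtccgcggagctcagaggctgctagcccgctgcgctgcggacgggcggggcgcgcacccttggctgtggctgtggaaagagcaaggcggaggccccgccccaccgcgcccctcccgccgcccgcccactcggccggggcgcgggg
Col8a1: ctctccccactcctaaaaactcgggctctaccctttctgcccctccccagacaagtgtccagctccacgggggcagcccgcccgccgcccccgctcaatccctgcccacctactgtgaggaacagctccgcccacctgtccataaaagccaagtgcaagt
Col24a1: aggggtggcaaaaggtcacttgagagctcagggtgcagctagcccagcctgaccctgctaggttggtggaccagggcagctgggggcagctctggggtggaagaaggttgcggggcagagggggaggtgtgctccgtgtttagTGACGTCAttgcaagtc
Col11a2: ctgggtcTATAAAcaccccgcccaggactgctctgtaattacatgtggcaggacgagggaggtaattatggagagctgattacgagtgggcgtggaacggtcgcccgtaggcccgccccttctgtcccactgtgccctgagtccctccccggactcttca
Col10a1: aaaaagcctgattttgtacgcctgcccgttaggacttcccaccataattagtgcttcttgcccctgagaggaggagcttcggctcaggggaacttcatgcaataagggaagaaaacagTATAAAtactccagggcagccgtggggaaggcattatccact
These stretches lie at chr4:126286644-126286803 on the plus strand for Col8a2, chr16:57754728-57754887 on the minus strand for Col8a1, chr3:145292322-145292481 on the plus strand for Col24a1, chr17:34038988-34039147 on the plus strand for Col11a2, chr10:34389831-34389990 on the plus strand for Col10a1. The full response element stood in the window of 1 member, Col24a1, where it begins 7 bases before the annotated start, and in 1.79% of all windows. Its half-site TGACG, which is part of the full element, was found in 4 members and in 20.8% of windows. The TATA box was found in 5 members, among them Col10a1 at 32 bases and Col11a2 at 143 bases before the start, and in 13.6% of windows. The RefSeq gene of Col11a2 begins at chr17:34038919, upstream of its whole printed stretch, so the start used for it lies inside the gene. The GC box GGGCGG was found in 21 of the 33 members against 35.7% of windows, and the CCAAT box, CCAAT, in 13 against 37.4%. The AP-1 element TGANTCA was found in 1 member, Col6a1, and in 7.81% of windows, and the RUNX element TGTGGT in 3 members and in 16.8% of windows. Both strands were searched for every motif, and a match describes the letters only. Members were counted as genes and the share of all windows by single window, so these are not in the same unit. The windows of Col4a1 and Col4a2, genes that run in opposite directions, share 78 of their 300 bases.

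Collagen genes of untreated cells moved with time in culture, which is the ground on which the ligands acted. Between 1 and 6 h no member passed the limma test (0 of 39 also at an unadjusted p under 0.05), against 0.719% of all genes higher and 1.55% lower. From 1 to 24 h, 5 of 39 members rose and 8 fell, against 11.6% of all genes that rose and 11.5% that fell. The median difference of the members was -0.04, and that of all genes tested was -0.0052. Of 4 osteoblast lineage markers 3 fell over the same time, and the log2 ratio of the 3' to the 5' probe set of Actb was 0.23 ± 0.02 at 1 h and 0.38 ± 0.01 at 24 h (SD, n = 3). The map of differences by comparison shows these shifts beside the ligand responses.

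**Figure D1:**
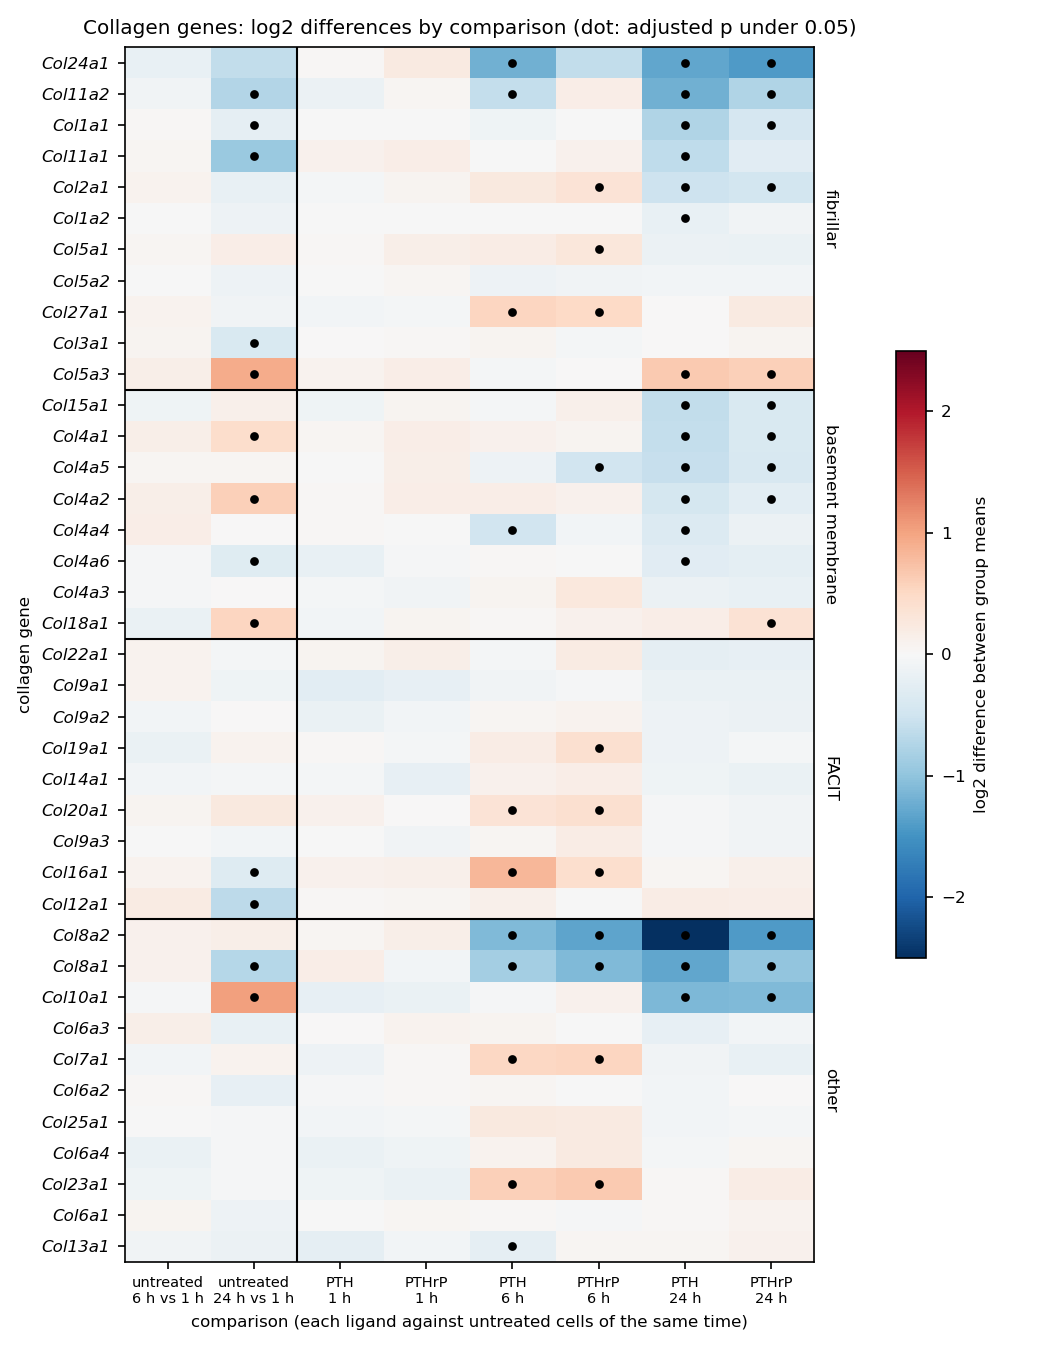
Log2 differences of the 39 tested collagen genes (rows, grouped by type) in 8 comparisons (columns); red is higher, blue is lower, and a dot marks an adjusted p under 0.05 in limma. Dots are absent at 1 h, and blue cells with dots gather in the fibrillar, basement membrane and other types at 24 h, with 15 falls under PTH and 11 under PTHrP.

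Col10a1, the gene of the short-chain collagen of hypertrophic cartilage, had the largest rise of untreated cells. Its log2 intensity was 5.98, 5.81 and 6.08 on the arrays of 1 h and 7.06, 6.83 and 7.07 on those of 24 h, so the groups did not overlap. The difference was 1.03 ± 0.15 (SE, adjusted p = 7.09e-06 in limma). Col5a3, a minor fibril chain, rose by 0.92 ± 0.09 (adjusted p = 2.35e-08) on its brighter probe set, and the other probe set did not pass (0.20, adjusted p = 0.294 over all probe sets). The neighbouring basement membrane genes Col4a2 and Col4a1 rose by 0.59 ± 0.08 and 0.45 ± 0.08, and Col18a1, whose C-terminal fragment is endostatin, by 0.54 ± 0.08.

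Both type XI chain genes, whose product sets the width of cartilage fibrils, fell in untreated cells over the same time. Col11a1 stood at 8.81, 8.86 and 8.64 at 1 h and at 7.90, 7.83 and 7.79 at 24 h, a difference of -0.93 ± 0.15 (adjusted p = 5.21e-05 in limma). Col11a2 fell by 0.73 ± 0.15. Col8a1, a short-chain collagen of vessel walls and of the membrane under the corneal endothelium, fell by 0.72 ± 0.13. The FACIT genes Col12a1 and Col16a1 were lower, at -0.65 ± 0.11 and -0.32 ± 0.08. Col3a1, the type III fibril chain, fell by 0.38 ± 0.06 on its brighter probe set. The gap was wider on its dimmer one, which read 11.44, 11.48 and 11.43 at 1 h and 10.34, 10.54 and 10.55 at 24 h. Col1a1 fell by 0.23 ± 0.07 and Col4a6 fell by 0.29 ± 0.09. Each of these calls was lost without any one of 3 arrays, with adjusted p up to 0.0742 for Col1a1, without untreated 1 h replicate 2, and up to 0.0764 for Col4a6, without untreated 24 h replicate 3. A dimmer probe set of Col1a1 read 12.84, 12.99 and 12.89 at 1 h and 12.30, 12.34 and 12.54 at 24 h. These arrays did not overlap. Col1a2 differed by -0.12 ± 0.06 (adjusted p = 0.14) on its brightest probe set, while a dimmer one fell by 0.35 (adjusted p = 0.000466 over all probe sets). The 26 members that did not pass on the probe set used ranged from -0.62 to 0.25.

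After 1 h no collagen gene passed the test with either ligand. With PTH, 0 of 39 members passed in limma (3 at an unadjusted p under 0.05), against 1.44% of all genes higher and 0.299% lower. Members ranged from -0.27 to 0.17. With PTHrP, 0 of 39 passed (2 at an unadjusted p under 0.05), against 1.57% of all genes higher and 0.248% lower, and members ranged from -0.21 to 0.22. Col1a1 differed from untreated cells by -0.013 ± 0.070 with PTH and -0.0078 ± 0.0702 with PTHrP. Col1a2 differed by -0.0082 ± 0.0574 and -0.0015 ± 0.0574.

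After 6 h of PTH, Col24a1, Col8a2, Col8a1, Col11a2, Col4a4 and Col13a1 fell, and Col16a1, Col23a1, Col27a1, Col7a1 and Col20a1 rose. Of 39 members, 5 rose and 6 fell, against 11.4% of all genes that rose and 17.9% that fell. The member median was 0.05 and that of all genes -0.0034. Of 4 osteoblast lineage markers, 3 fell at this time as well (median -1.01), and the log2 ratio of the 3' to the 5' probe set of Actb was 0.34 ± 0.01 with PTH and 0.25 ± 0.05 untreated (SD, n = 3).

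Col24a1, a fibrillar collagen gene that is active in forming bone, had the largest fall with PTH at 6 h. It read 6.42, 6.61 and 6.07 in untreated cells and 5.15, 5.27 and 5.09 with PTH, with no overlap. That is a difference of -1.20 ± 0.26 (adjusted p = 0.00067 in limma). Col8a2, the partner chain of Col8a1, read 7.71, 7.21 and 7.48 untreated and 6.08, 6.48 and 6.51 with PTH, again apart. It fell by 1.11 ± 0.17 (adjusted p = 1.07e-05), and Col8a1 fell by 0.84 ± 0.13 (adjusted p = 2.42e-05). Col11a2 fell by 0.60 ± 0.15. Of the basement membrane genes Col4a4 alone fell, at -0.47 ± 0.10, with levels near the intensity filter: its PTH arrays read 5.13, 4.95 and 4.81. Col13a1, a membrane-spanning collagen gene that was also near the filter, fell by 0.23 ± 0.08.

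The largest rise at 6 h was that of Col16a1, a FACIT gene. Its 3 untreated arrays read 10.13, 10.02 and 10.22, and its PTH arrays 10.90, 11.06 and 10.92. All PTH arrays were above all untreated ones, and Col16a1 rose by 0.83 ± 0.08 (adjusted p = 1.7e-08 in limma). Col23a1, a membrane-spanning collagen gene, rose by 0.60 ± 0.12, and Col27a1, a fibrillar gene known from cartilage, by 0.53 ± 0.10. Col7a1, the gene of the anchoring fibrils of skin, rose by 0.52 ± 0.11 and the FACIT gene Col20a1 by 0.35 ± 0.11. The call of Col20a1 was lost without replicate 1 of untreated cells or of PTH at 6 h (adjusted p = 0.12 and 0.128), and that of Col13a1 without any one of 5 arrays, with adjusted p up to 0.111 without untreated 6 h replicate 3. Another probe set of Col23a1 did not pass (0.28, adjusted p = 0.113 over all probe sets). The other probe sets of Col20a1 did not pass either (0.25 and 0.15, adjusted p = 0.0661 and 0.423).

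The type I collagen genes did not pass at 6 h on their brightest probe sets. Col1a1 read 14.71, 14.76 and 14.80 untreated and 14.65, 14.67 and 14.64 with PTH. These arrays did not overlap, but the difference of -0.10 ± 0.07 did not pass (adjusted p = 0.35 in limma). Col1a2 differed by -0.013 ± 0.057 (adjusted p = 0.917).

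PTHrP at 6 h raised 8 of 39 members and lowered 3, against 8.7% of all genes that rose and 12.2% that fell. The member median was 0.11 and that of all genes 0.03. The falls were those of Col8a2, at -1.32 ± 0.17 (adjusted p = 1.7e-06 in limma), Col8a1, at -1.11 ± 0.13 (adjusted p = 9.74e-07), and the basement membrane gene Col4a5, at -0.48 ± 0.09. Col8a1 read 10.97, 11.27 and 10.89 with PTHrP against 12.12, 12.13 and 12.21 untreated, so that every treated array was below every untreated one. The rises were led by Col23a1 with 0.65 ± 0.12, Col7a1 with 0.55 ± 0.11 and Col27a1 with 0.49 ± 0.10. Among FACIT genes Col16a1 rose by 0.42 ± 0.08 and Col20a1 by 0.40 ± 0.11. The other tested probe sets of Col20a1 did not pass (0.27 and 0.32, adjusted p = 0.0642 and 0.0604 over all probe sets, limma).

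Col19a1, Col2a1 and Col5a1 also passed with PTHrP at 6 h. The other probe set of Col19a1 differed by 0.0009 (adjusted p = 0.997 over all probe sets). A dimmer probe set of Col5a1 did not pass (0.16, adjusted p = 0.2 over all probe sets, limma). Col2a1, the type II chain of cartilage, rose by 0.34 ± 0.10. Without untreated 6 h replicate 1 the number of members that passed was 7 in place of 11, with Col2a1, Col5a1, Col19a1 and Col20a1 no longer past the threshold (adjusted p = 0.0839, 0.246, 0.0928 and 0.0737 in limma). Col24a1 differed from untreated cells by -0.61 ± 0.26 and did not pass. Col1a1 differed by -0.0023 ± 0.0702 and Col1a2 by -0.015 ± 0.057.

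Between the ligands, 5 members differed at 6 h, with PTHrP above PTH for 3 and below for 2, against 4.45% of all genes higher and 3.17% lower. Col11a2 read 10.34, 9.71 and 10.29 with PTHrP and 9.47, 9.36 and 9.20 with PTH, a difference of 0.77 ± 0.15 (adjusted p = 0.00165 in limma). Col16a1 was lower with PTHrP than with PTH (-0.41 ± 0.08, adjusted p = 0.00253). Col4a4 was higher by 0.41 ± 0.10, Col4a5 differed by -0.34 ± 0.09, and Col13a1 was the other higher gene. Only Col11a2 and Col16a1 passed without PTH 6 h replicate 2, PTH 6 h replicate 3 or PTHrP 6 h replicate 3, each of which left 2 members. Col24a1 differed by 0.58 between the ligands, with a 95% interval of 0.06 to 1.11 and adjusted p = 0.188.

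At 24 h falls outnumbered rises among collagen genes. PTH lowered 15 of 39 members and raised 1, against 5.96% of all genes that fell and 5.69% that rose. The median difference was -0.14 in the members and -0.0008 in all genes. PTHrP lowered 11 members and raised 2, against 3.02% of all genes that fell and 3.09% that rose, with medians of -0.14 and -0.0088. The fibrillar, basement membrane and other types all held falls, and none of the 9 FACIT genes passed with either ligand (1 at an unadjusted p under 0.05 with each). The FACIT genes ranged from -0.22 to 0.18 with PTH and from -0.20 to 0.17 with PTHrP. Both ligands were set against the same untreated arrays.

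**Figure D2:**
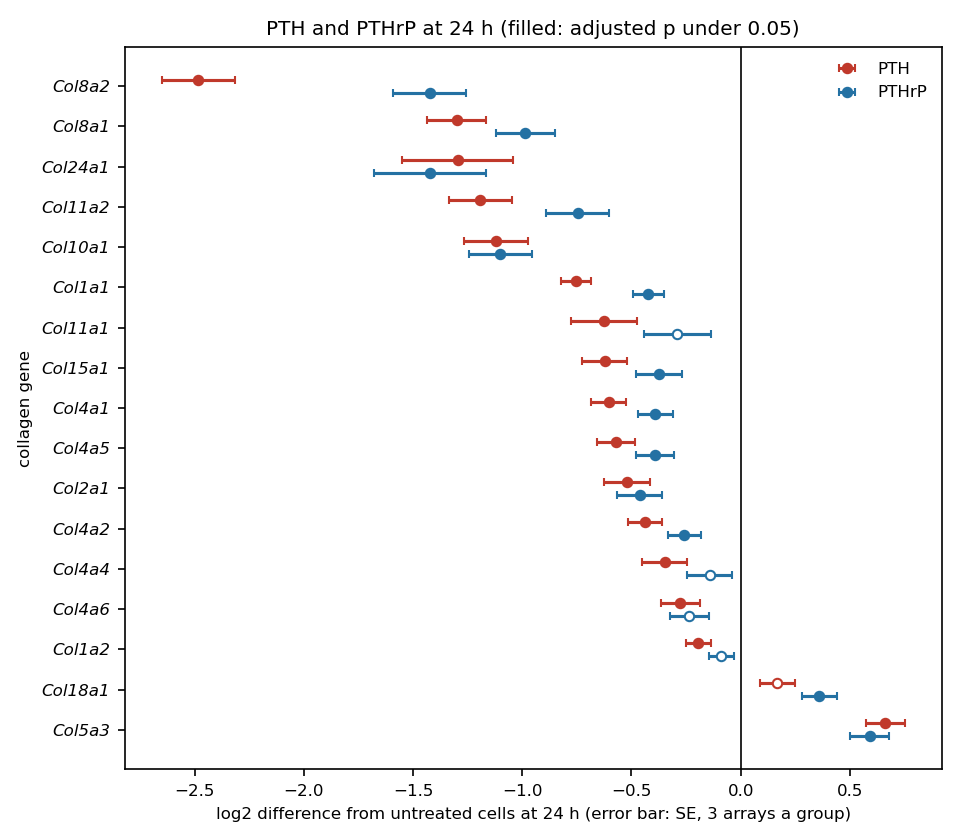
Log2 differences from untreated cells at 24 h (horizontal axis) for the 17 collagen genes that passed with either ligand (rows), PTH in red and PTHrP in blue; bars are SE with 3 arrays a group, filled points have an adjusted p under 0.05. Col8a2 lies farthest left, at -2.48 with PTH and -1.42 with PTHrP, and Col5a3 lies right of 0 for both.

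Among the short-chain network collagens, Col8a2 had the largest difference of any member. It read 7.14, 7.68 and 7.74 in untreated cells, 5.25, 5.06 and 4.80 with PTH, and 5.98, 6.44 and 5.88 with PTHrP. All treated arrays were below all untreated ones, and the PTH arrays were below the PTHrP arrays. Col8a2 fell by 2.48 ± 0.17 with PTH (adjusted p = 9.54e-11 in limma). It fell by 1.42 ± 0.17 with PTHrP (adjusted p = 1.93e-06). The PTH arrays lie near the intensity filter of 5.

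Its partner gene Col8a1 read 11.16, 11.40 and 11.42 untreated, 10.11, 9.91 and 10.06 with PTH and 10.34, 10.25 and 10.44 with PTHrP. Here too every treated array lay below the untreated ones. The differences were -1.30 ± 0.13 with PTH and -0.99 ± 0.13 with PTHrP (adjusted p = 1.77e-07 and 1.64e-05 in limma). Its 2 other probe sets differed by -1.19 and -1.30 with PTH, so all 3 probe sets of the gene gave a similar size.

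Col10a1, the gene that rose with time in untreated cells, read 5.81, 6.00 and 5.78 with PTH and 5.81, 5.89 and 5.96 with PTHrP at 24 h. These values lie within the range of untreated cells at 1 and 6 h, which was 5.76 to 6.11, and below the untreated arrays of 24 h, the lowest of which was 6.83. Col10a1 differed from untreated cells of 24 h by -1.12 ± 0.15 with PTH (adjusted p = 4.88e-06 in limma) and by -1.10 ± 0.15 with PTHrP (adjusted p = 1.03e-05). The panels of array values show the rise in untreated cells at 24 h next to both treated groups.

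**Figure D3:**
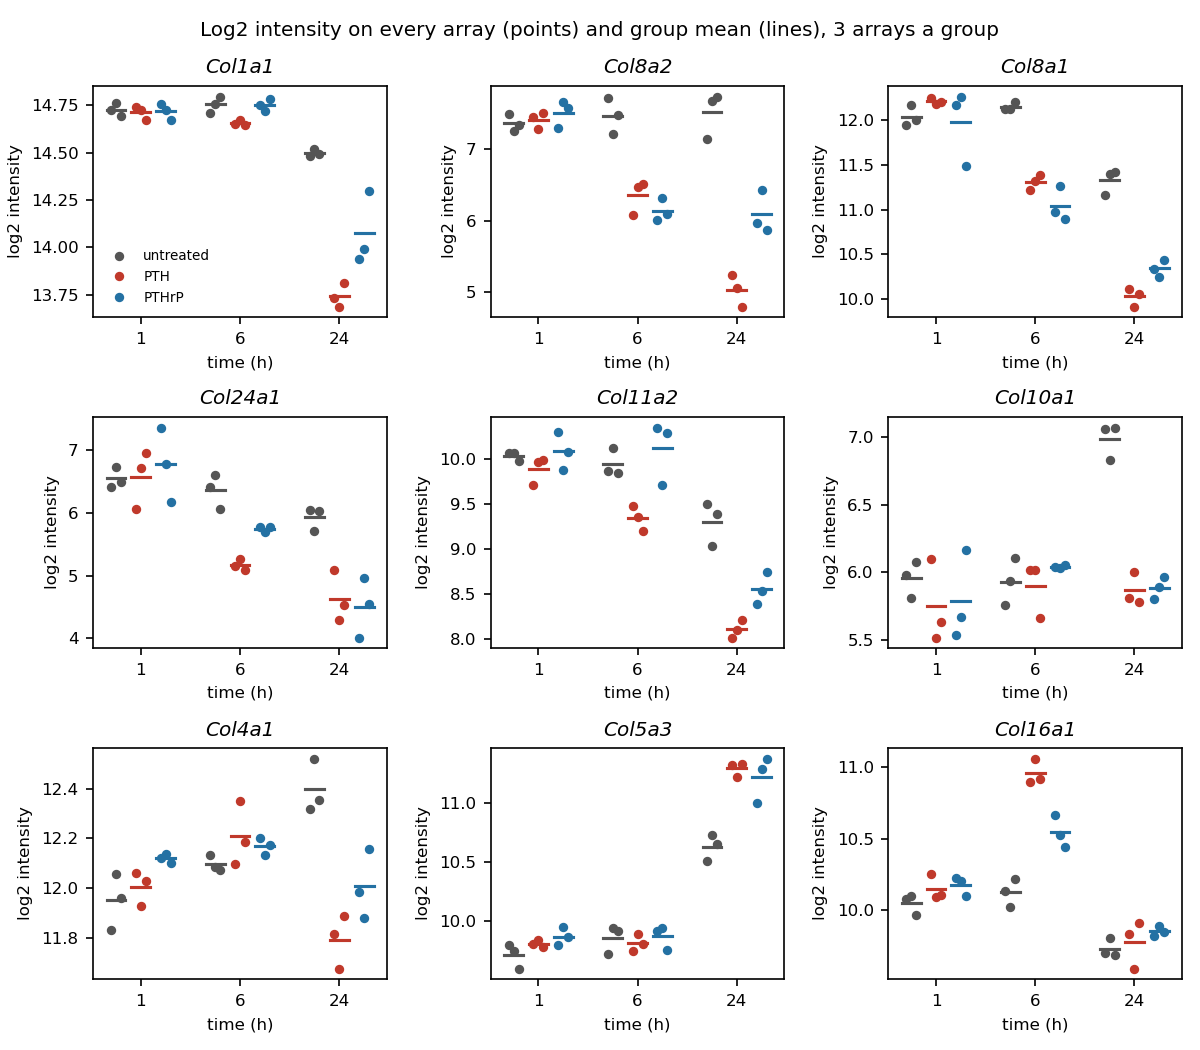
Log2 intensity of 9 collagen genes on each of the 27 arrays (points) with group means (lines), by time and treatment; each panel has its own vertical axis, which does not start at 0. Untreated cells at 24 h stand at 6.83 to 7.07 for Col10a1 while all other groups stay at or below 6.16, and Col16a1 is highest with PTH at 6 h, at 10.90 to 11.06.

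Among fibrillar collagens, Col1a1 read 14.48, 14.52 and 14.49 in untreated cells at 24 h, 13.73, 13.69 and 13.81 with PTH and 13.94, 13.99 and 14.30 with PTHrP. The untreated arrays were highest and the PTH arrays lowest, with no overlap. Col1a1 fell by 0.75 ± 0.07 with PTH (adjusted p = 2.97e-08 in limma) and fell by 0.42 ± 0.07 with PTHrP (adjusted p = 0.000203). Col1a2 fell by 0.19 ± 0.06 with PTH (adjusted p = 0.0265) and differed by -0.09 ± 0.06 with PTHrP (adjusted p = 0.543). The call of Col1a2 was lost without any one of 5 arrays, with adjusted p up to 0.113 without untreated 24 h replicate 3, and under cyclic loess normalization (-0.12, adjusted p = 0.169).

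The probe set behind the Col1a1 values was the brightest or near the brightest of the array: it lay 0.00 to 1.14 log2 units below the top value of its array, with a rank from 1 to 187. The one behind Col1a2 lay 0.16 to 0.65 below the top. A dimmer probe set of Col1a1 read 12.30, 12.34 and 12.54 in untreated cells at 24 h, 11.04, 10.87 and 10.92 with PTH and 11.46, 11.50 and 11.87 with PTHrP. The order of the groups was the same as on the brighter probe set and the gaps were wider. Its differences were -1.45 ± 0.09 with PTH (adjusted p = 3.02e-11 over all probe sets, limma) and -0.78 ± 0.09 with PTHrP. At 6 h it differed by -0.28 with PTH (adjusted p = 0.0219), where the brighter one had not passed. The part that the upper end of the array's range plays in these sizes was not tested.

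Probe sets of other fibrillar genes also differed in size. A dimmer probe set of Col1a2 read 13.46, 13.48 and 13.46 untreated and 12.98, 12.92 and 13.05 with PTH, a difference of -0.48 ± 0.07 (adjusted p = 2.22e-05 over all probe sets, limma). For Col5a2, a chain of type V collagen, the brighter probe set differed by -0.07 ± 0.06 and did not pass. Its dimmer one read 11.24, 11.14 and 11.20 untreated and 10.67, 10.20 and 10.73 with PTH, a difference of -0.66 ± 0.11 (adjusted p = 0.000231). For Col3a1 neither probe set passed with PTH at 24 h, with differences of 0.017 ± 0.067 and 0.080 ± 0.105.

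**Figure D4:**
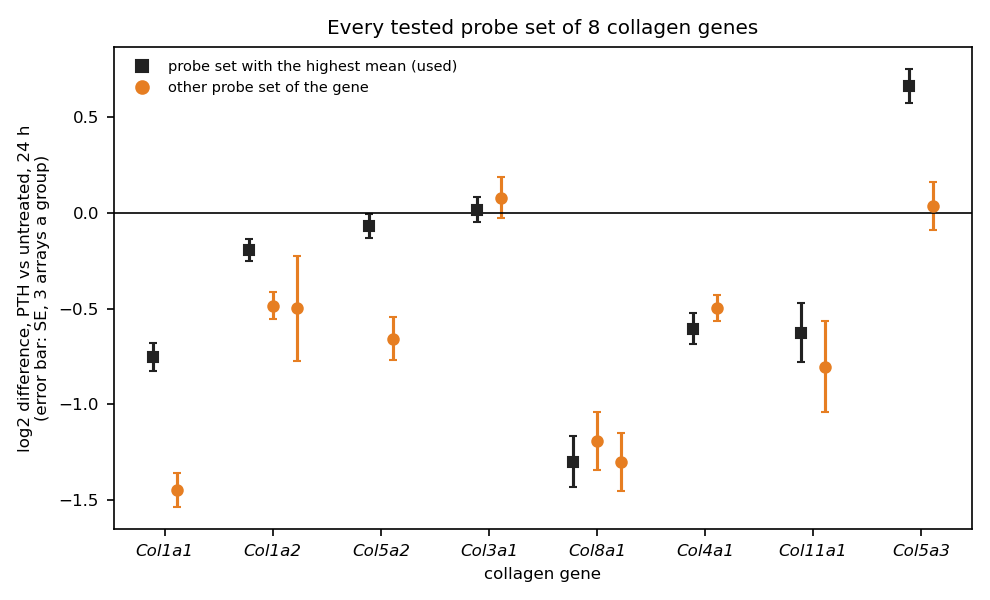
Log2 difference between PTH and untreated cells at 24 h for every tested probe set of 8 collagen genes (vertical axis, with SE, 3 arrays a group); black squares are the probe sets with the highest mean, orange circles the others. The 3 probe sets of Col8a1 lie close together, from -1.30 to -1.19, while those of Col1a1 are apart at -0.75 and -1.45 and those of Col5a3 at 0.66 and 0.04.

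The fibrillar gene Col24a1 read 6.05, 5.71 and 6.03 in untreated cells at 24 h, 5.08, 4.29 and 4.53 with PTH and 4.01, 4.96 and 4.55 with PTHrP. All treated arrays were below all untreated ones, most of them under the intensity filter of 5. The differences were -1.29 ± 0.26 with PTH and -1.42 ± 0.26 with PTHrP (adjusted p = 0.000912 and 0.000509 in limma). Col11a2 differed by -1.19 ± 0.15 with PTH (adjusted p = 2.09e-06) and by -0.75 ± 0.15 with PTHrP. Its partner Col11a1 fell by 0.63 ± 0.15 with PTH and differed by -0.29 ± 0.15 with PTHrP, which did not pass. Col2a1, which had risen with PTHrP at 6 h, was lower with both ligands, at -0.52 ± 0.10 with PTH and -0.46 ± 0.10 with PTHrP.

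Col5a3 alone among fibrillar genes rose with the ligands at 24 h, on the probe set used. It read 10.51, 10.73 and 10.65 in untreated cells, 11.32, 11.22 and 11.33 with PTH and 11.00, 11.28 and 11.38 with PTHrP. Every treated array was above every untreated one, and at 1 and 6 h all 18 arrays had read between 9.59 and 9.95. The rise over untreated cells was 0.66 ± 0.09 with PTH and 0.59 ± 0.09 with PTHrP (adjusted p = 7.84e-06 and 5.52e-05 in limma). The other probe set of Col5a3 did not show it and read 5.10 to 5.59 untreated and 5.27 to 5.48 with PTH, a difference of 0.04 ± 0.12. These values lie near the intensity filter of 5, where differences are understated.

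Of the 8 basement membrane genes, 6 fell with PTH at 24 h and none rose. Col4a1, a chain of the most widespread type IV collagen, read 12.32, 12.52 and 12.35 untreated, 11.82, 11.68 and 11.89 with PTH and 11.98, 11.88 and 12.16 with PTHrP. The treated arrays were all lower, with PTH and PTHrP arrays overlapping. Col4a1 differed by -0.60 ± 0.08 with PTH (adjusted p = 8.35e-06 in limma) and by -0.39 ± 0.08 with PTHrP (adjusted p = 0.00251). Col15a1, a proteoglycan-like collagen that links basement membranes to the matrix, differed by -0.62 ± 0.10 and -0.37 ± 0.10, both past the threshold. The other falls with PTH, of Col4a2, Col4a4, Col4a5 and Col4a6, ran from -0.57 to -0.28. With PTHrP Col4a5 fell by 0.39 ± 0.09 and Col4a2 fell by 0.26 ± 0.08. The other probe set of Col4a5 did not pass with PTHrP (-0.22, adjusted p = 0.265 over all probe sets).

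Some of the smaller basement membrane calls did not hold when a single array was left out. With PTH, Col4a4 was lost without any one of 3 arrays and Col4a6 of 5, with adjusted p = 0.117 and 0.258 in limma without PTH 24 h replicate 1. With PTHrP, Col15a1 was lost without any one of 3 arrays and Col4a2 of 4, with 0.25 and 0.243 without PTHrP 24 h replicate 1. With the replicate number as a block Col4a6 with PTH had adjusted p = 0.0521 and Col4a2 with PTHrP 0.0553. Col18a1 rose with PTHrP by 0.36 ± 0.08 (adjusted p = 0.00525), and with PTH it differed by 0.17 and did not pass. Its 2 probe sets differed little in size with PTHrP, at 0.36 and 0.27, but the dimmer one did not pass (adjusted p = 0.111 over all probe sets).

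PTHrP and PTH differed at 24 h in 2 members, both higher with PTHrP, against 0.84% of all genes higher and 0.318% lower. Col8a2 was higher with PTHrP than with PTH by 1.06 ± 0.17 (adjusted p = 0.000732 in limma), and Col1a1 by 0.33 ± 0.07 (adjusted p = 0.0152). Col8a2 alone passed without PTH 24 h replicate 2 or without PTHrP 24 h replicate 3, where Col1a1 had adjusted p = 0.105 and 0.159. Fitted on the arrays of the 2 ligands alone, Col1a1 had adjusted p = 0.356. These values are those of its brightest probe set. Its dimmer probe set read 11.46, 11.50 and 11.87 with PTHrP and 11.04, 10.87 and 10.92 with PTH, with no overlap. Other members did not pass on the probe sets used, while a dimmer probe set of Col1a2 was higher with PTHrP by 0.29 (adjusted p = 0.0457 over all probe sets). For Col10a1 the difference was 0.02 with a 95% interval of -0.28 to 0.32, for Col24a1 -0.13 with -0.66 to 0.40, and for Col8a1 0.31 with 0.04 to 0.59. At 1 h 0 of 39 members differed between the ligands (1 at an unadjusted p under 0.05), as did 0% of all genes in either direction.

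The times of response differed between genes, as tested by the change of a ligand's effect from one time to the next. From 1 to 6 h the PTH effect changed for 8 members (4 up, 4 down), against 18.5% of all genes (1020 up, 1894 down). The largest were Col24a1 at -1.23 ± 0.36, Col8a2 at -1.16 ± 0.24, Col8a1 at -1.01 ± 0.19 and Col16a1 at 0.73 ± 0.12. Col4a4 was the other one down, and Col7a1, Col23a1 and Col27a1 were the others up. Col24a1 was lost without PTH 1 h replicate 3 (adjusted p = 0.0662) and Col4a4 without untreated 1 h replicate 1 (0.0573), among 2 arrays for each. From 6 to 24 h the PTH effect changed for 15 members, 14 of them down, against 20.4% of all genes (1983 up, 1228 down). Col8a2 changed by -1.37 ± 0.24 (adjusted p = 0.00013 in limma), and Col10a1 changed by -1.09 ± 0.21. Col16a1 changed by -0.79 ± 0.12 and Col2a1 by -0.76 ± 0.15, the first of these back from its rise at 6 h. Col1a1, Col4a1, Col4a2, Col4a5, Col7a1, Col11a1, Col11a2, Col15a1, Col23a1 and Col27a1 also changed downward, and Col5a3 upward. Of these, Col11a1 was lost without any one of 11 arrays, with adjusted p up to 0.121 without PTH 24 h replicate 2, and Col11a2 of 8, up to 0.119 without untreated 24 h replicate 1. Col11a1 was also lost under the mean over its probe sets (-0.56, adjusted p = 0.155). Col23a1, Col27a1 and Col4a5 were lost without 1 array each, at adjusted p = 0.0561 without PTH 24 h replicate 1, 0.0523 without untreated 24 h replicate 2 and 0.0524 without PTH 24 h replicate 2.

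The PTHrP effect changed for 6 members from 1 to 6 h, 3 in each direction, against 12.2% of all genes (587 up, 1328 down). Col8a2 changed by -1.47 ± 0.24, Col8a1 by -1.04 ± 0.19, Col23a1 by 0.81 ± 0.17 and Col4a5 by -0.63 ± 0.13, and Col7a1 and Col27a1 rose. Without PTHrP 1 h replicate 3, the array that stood apart, 13 members passed, 9 up and 4 down. Col7a1 was lost without any one of 6 arrays, with adjusted p up to 0.0807 without PTHrP 1 h replicate 2, and Col27a1 without PTHrP 6 h replicate 2 (0.0605). From 6 to 24 h the PTHrP effect changed for 12 members, 11 of them down, against 12.1% of all genes (1112 up, 791 down). Col10a1 changed by -1.21 ± 0.21, Col11a2 by -0.92 ± 0.21, Col2a1 by -0.80 ± 0.15 and Col7a1 by -0.74 ± 0.15. Col1a1, Col4a1, Col4a2, Col5a1, Col15a1, Col20a1 and Col22a1 also changed downward and Col5a3 upward. That count was 7 without PTHrP 6 h replicate 1. Over single arrays left out, Col15a1, Col20a1, Col22a1, Col4a2 and Col5a1 were each lost without 4 to 9 arrays, with adjusted p up to 0.121 for Col20a1 and Col5a1 without untreated 6 h replicate 1. Under the mean over a gene's probe sets, the changes of Col5a3 (0.26, adjusted p = 0.18) and Col5a1 (-0.35, adjusted p = 0.0514) were lost.

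The members that passed in none of the 15 comparisons on the probe set used were 11, among them Col6a1, Col6a2, Col6a3 and Col6a4, the tested type VI chains of beaded filaments, and Col9a1, Col9a2 and Col9a3, the type IX chains that coat cartilage fibrils. The rest were Col4a3, Col5a2, Col14a1 and Col25a1. The dimmer probe set of Col5a2 read 11.67, 11.65 and 11.58 in untreated cells at 6 h. With PTH it read 10.95, 11.15 and 11.08 at that time, and with PTHrP 11.08, 11.12 and 11.28. At 24 h it read 10.59, 10.73 and 10.80 with PTHrP and 11.24, 11.14 and 11.20 untreated. In each case the treated arrays lay below the untreated ones. Col6a1 read 13.32, 13.53 and 13.43 untreated at 24 h and 13.41, 13.42 and 13.52 with PTH, with the groups overlapping.

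Genes that process collagen moved in both directions, as did all genes, of which 11.4% rose and 17.9% fell with PTH at 6 h and 5.69% rose and 5.96% fell at 24 h. Of 20 genes of procollagen modification and folding, 6 rose and 2 fell with PTH at 6 h, and 5 rose and 5 fell at 24 h, with medians of 0.01 at both times. The lysyl hydroxylase genes, whose enzymes prepare collagen for crosslinking, were among the rises: Plod2 rose by 1.43 ± 0.14 at 6 h and 0.84 ± 0.14 at 24 h with PTH, and Plod3 by 0.71 ± 0.07 and 0.44 ± 0.07. The prolyl hydroxylase subunit gene P4ha3 fell by 0.81 ± 0.11 at 24 h while P4ha2 rose by 0.64 ± 0.14. Creb3l1, a transcription factor that acts on collagen genes in osteoblasts, differed by -0.58 ± 0.11 at 6 h and -0.56 ± 0.11 at 24 h with PTH. With PTHrP 7 of the 20 rose and 1 fell at 6 h, against 8.7% and 12.2% of all genes, and 4 rose and 1 fell at 24 h, against 3.09% and 3.02%.

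The lists of crosslinking, receptor and breakdown genes were small, and their counts stand beside the same 11.4% of all genes that rose and 17.9% that fell with PTH at 6 h and 5.69% and 5.96% at 24 h. Of 10 genes of procollagen cleavage and crosslinking, 6 were tested, and with PTH 2 fell at 6 h and 2 at 24 h, with medians of -0.15 and -0.20. Loxl4, a lysyl oxidase-like gene, was lower at 24 h, at -0.55 ± 0.12 with PTH and -0.71 ± 0.12 with PTHrP. Of 8 collagen receptor genes tested, 1 rose and 3 fell with PTH at 6 h, and 1 fell at 24 h, with medians of -0.15 and 0.03. The one at 24 h was Itga10, an integrin chain that binds collagen, which differed by -1.53 ± 0.09 with PTH and -0.65 ± 0.09 with PTHrP. Ddr2, a collagen-binding receptor kinase, was lower at 6 h, at -1.001 ± 0.126 with PTH and -1.09 ± 0.13 with PTHrP. Of 9 genes of collagen breakdown, 3 rose with PTH at 6 h, and 1 rose and 1 fell at 24 h, with medians of 0.13 and -0.0073. The collagenase gene Mmp13 rose by 0.81 ± 0.10 at 6 h and 0.50 ± 0.10 at 24 h with PTH, and the inhibitor gene Timp1 by 1.59 ± 0.09 at 6 h.

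Untreated cells at 1 h had a mean log2 level of 11.86 to 12.01 over 4 osteoblast lineage markers and of 10.56 to 10.66 over 4 marrow stroma markers, the cell types the labels and title name. Runx2, Spp1, Bglap and Bglap2 of the osteoblast lineage list, and Plin1 of the fat cell list, had no probe set with their symbol alone. Of the 4 osteoblast lineage markers with values, 3 fell in untreated cells from 1 to 24 h, with a list median of -0.64. At 6 h 3 of 4 fell with PTH and 3 with PTHrP, with medians of -1.01 and -0.48. Marker lists also moved with the ligands at 24 h. All 4 osteoblast lineage markers fell with PTH and 3 with PTHrP: Ibsp, which encodes bone sialoprotein, differed by -2.86 and -1.57 and Sp7, an osteoblast transcription factor, by -1.89 and -1.06. The mean log2 level of this list was 11.34 to 11.45 on untreated arrays, 9.54 to 10.01 with PTH and 10.35 to 10.72 with PTHrP. Of 5 fat cell markers, 3 fell with PTH (Adipoq, Cidec and Pparg) and none passed with PTHrP, with list levels of 8.92 to 9.32 untreated, 8.31 to 8.79 with PTH and 8.40 to 9.18 with PTHrP. Of 7 cartilage markers, Hapln1, Matn1 and Cnmd were under a log2 intensity of 5 in every group. None of the other 4, which include Acan and Sox9, passed at 24 h with either ligand. At 1 h and at 6 h, 1 of these 4 rose with each ligand. Of the 4 marrow stroma markers, Pdgfra rose by 0.46 with PTH and 0.75 with PTHrP. Cd68, 1 of 6 blood and macrophage markers, fell by 0.47 with PTH, while Ptprc and Itgam were under 5 in every group. No tested marker of endothelium, epithelium or skeletal muscle passed at 24 h. Their part in the collagen differences was not tested.

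The ratio of the 3' to the 5' probe set of Actb, a sign of RNA integrity, was not the same in all groups. In untreated cells its log2 value was 0.23 ± 0.02 (SD, n = 3) at 1 h, 0.25 ± 0.05 at 6 h and 0.38 ± 0.01 at 24 h. At 6 h it was 0.34 ± 0.01 with PTH and 0.30 ± 0.05 with PTHrP. At 24 h it was 0.42 ± 0.01 with PTH and 0.44 ± 0.01 with PTHrP, and its part in the collagen differences was not tested.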

How the data were processed

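Values of 45101 probe sets on 27 arrays were analysed as deposited. The authors deposited them as intensity values on a linear scale from 6.79 to 36257, summarised by RMA per the submitters' processing notes and normalised again for the deposit per the series' design text. Software version and probe set definitions: not given in the sources used here. RMA draws the distributions of all arrays together and understates differences of dim probes, and log2 was taken before all tests. A platform annotation table named 34945 probe sets with 1 symbol, 932 with several and did not list 9211. Of the first, 34741 matched a RefSeq gene by identifier. The test took the 15711 genes that reached log2 5 on 3 or more arrays. limma 3.58.1 in R 4.3.3 fitted 9 group means to all arrays, with 18 residual and 5.54 prior degrees of freedom, in 15 comparisons, two-sided, with Benjamini-Hochberg adjustment over all genes tested. Precision is limited by the number of arrays, with a median SE of 0.102 between 2 groups and 0.144 for a change of effect. Single probe sets were adjusted over 28721 tested probe sets. The fit was tested on simulated data.

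Named with values were Col1a1 and Col1a2, and in each comparison with untreated cells or time the 6 largest differences past the threshold and the 2 largest of each type, and between ligands and times the 4 largest. Members named beyond this, and pathway and marker genes with values, were chosen after their values were seen. The members and the gene lists were chosen with earlier results of these data known. Deviations from the group means were correlated between arrays of the same number to check whether numbers pair the samples: at 1 h those of untreated and PTHrP-treated cells correlated at 0.188, 0.266 and 0.449, and the other 8 combinations of groups had at least 1 value under 0.1. The labels give no shared culture or day. Alternatives were quantile and cyclic loess normalization, no filter and a filter at log2 7, the mean over a gene's probe sets, each probe set by itself, only the arrays compared, the replicate number as a block, and each array left out. No gene coordinates are used beyond the RefSeq promoter windows and the RefSeq gene start of Col11a2.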

Additional observations from a re-analysis of the deposited data

Results flagged for a closer look

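A limma test of the change of a ligand's effect between times, over all genes tested, singled out 41 values in collagen genes. Each value is the later difference from untreated cells minus the earlier one, on the log2 scale. For PTH from 1 to 6 h the effect changed for Col24a1 by -1.23, Col8a2 by -1.16, Col8a1 by -1.01, Col4a4 by -0.50, Col27a1 by 0.60, Col7a1 by 0.64, Col23a1 by 0.70 and Col16a1 by 0.73. For PTH from 6 to 24 h the effect changed for Col8a2 by -1.37, Col10a1 by -1.09, Col16a1 by -0.79, Col2a1 by -0.76, Col4a1 by -0.72, Col1a1 by -0.65, Col11a1 by -0.61 and Col4a2 by -0.61. In the same interval it also changed for Col7a1 by -0.60, Col11a2 by -0.60, Col23a1 by -0.58, Col15a1 by -0.58, Col27a1 by -0.52, Col4a5 by -0.43 and Col5a3 by 0.71. For PTHrP from 1 to 6 h the effect changed for Col8a2 by -1.47, Col8a1 by -1.04, Col4a5 by -0.63, Col7a1 by 0.52, Col27a1 by 0.53 and Col23a1 by 0.81. For PTHrP from 6 to 24 h the effect changed for Col10a1 by -1.21, Col11a2 by -0.92, Col2a1 by -0.80, Col7a1 by -0.74, Col15a1 by -0.50 and Col20a1 by -0.49. In the same interval it also changed for Col4a1 by -0.46, Col5a1 by -0.45, Col1a1 by -0.42, Col22a1 by -0.39, Col4a2 by -0.37 and Col5a3 by 0.58.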

How the results depend on the processing

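Of 2148 values of named genes under an alternative, 2004 kept their side of the threshold, 143 lost the call, 1 gained it and 0 reversed a call. A difference that passed in neither setting counted as kept even if its sign changed. The settings that take a single probe set were counted apart. The dimmer probe set of Col5a3 lies near the intensity filter of 5. By itself it gave the opposite sign with PTHrP at 24 h, at -0.0168 (adjusted p = 0.98 in limma). With only the arrays compared, PTHrP against PTH gave 3 members at 6 h in place of 5 and 1 at 24 h in place of 2. At 6 h Col4a4, Col4a5 and Col13a1 lost the call, so the 3 include a member that the fit over all arrays did not call. The filter at log2 7 left 5 members with a changed PTH effect from 1 to 6 h in place of 8. Leaving out the array that stood apart, chosen after seeing the data, gave 13 members with a changed PTHrP effect from 1 to 6 h. Leaving out each array in turn gave 2 to 5 members for PTHrP against PTH at 6 h and 1 to 2 at 24 h, 7 to 11 for PTHrP at 6 h, 4 to 13 for the change of the PTHrP effect from 1 to 6 h and 7 to 12 for that from 6 to 24 h. Counts of the other comparisons stayed within 1.5 times under every alternative, with 13 to 17 members for PTH at 24 h and 11 to 16 for PTHrP at 24 h, the highest of both with the mean over a gene's probe sets. With the replicate number as a block, 15 members passed with PTH at 24 h in place of 16 and 12 with PTHrP in place of 13, and the change of the PTH effect for Col11a1 from 6 to 24 h was lost (adjusted p = 0.0551), with no other call of a named gene lost or gained. A block over the untreated and PTHrP arrays of 1 h alone gave 0 members. Dim members near the filter have differences that are understated. Slide and scan date were not used, as the table gives neither.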
